A study of Homo sapiens with 24 samples.

Results

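Chromosome 19 carries 240 protein-coding genes in the count table whose symbol is ZNF followed only by digits, and these were followed across 4 genotypes and 2 stages of neural differentiation. They are 240 of the 61551 genes used, 50.4% of the 476 protein-coding genes with a symbol of this form and 16.3% of the 1473 protein-coding genes of the chromosome. All were chosen by symbol and chromosome, without use of their expression. The cells were H9, an established line of human embryonic stem cells (hESCs). hHAR123 cells were unedited and served as the control. HAR123-KO cells had both alleles of HAR123, a noncoding enhancer in an intron of SMG6, deleted with CRISPR-Cas9, and cHAR123 and mHAR123 cells carried the chimpanzee or the mouse ortholog in its place. RNA was sequenced before differentiation (day 0, ESC) and after 5 days in medium with Noggin and SB431542 (day 5, neuroectoderm, ECTO), with 3 libraries for each genotype and stage, 24 in all. The study took 2 clones of each genotype for this sequencing, so at least 2 of the 3 libraries of a group share a clone, and the sources used here do not say which, nor whether replicates were separate cultures. Here n = 3 counts libraries and not clones. A p-value therefore measures the spread between libraries, which may be technical, and an effect of a clone cannot be told apart from that of its genotype. HAR123 is not in an exon, so exon counts do not check the deletion. The study's own naming of the cHAR123 and mHAR123 libraries in ECTO is the reverse of the column labels. Values are given here by the column labels, and which ortholog is which in ECTO is therefore uncertain.

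C2H2 zinc finger proteins read DNA with arrays of finger domains, each held by a zinc ion. Many of those encoded on chromosome 19 also have a KRAB domain, which binds TRIM28 (KAP1) and through it SETDB1, a histone methyltransferase, and they are best known for silencing retrotransposons in embryonic stem cells. The genes arose by tandem duplication and stand in clusters. Here, a new cluster was begun wherever the starts of neighbouring members were over 1 Mb apart, which gave 9 clusters of 5 or more members. In order along GRCh38 these were cluster 1 (chr19:2819868-2944971, 5 members), cluster 2 (chr19:7069703-9793180, 15 members), cluster 3 (chr19:11483427-12640098, 25 members), cluster 4 (chr19:19668796-24129968, 37 members), cluster 5 (chr19:34677639-34964229, 5 members), cluster 6 (chr19:36182276-37817300, 24 members), cluster 7 (chr19:43525497-45076478, 24 members), cluster 8 (chr19:51571283-53580269, 39 members) and cluster 9 (chr19:55476617-58481230, 57 members).

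The bases before the start of a gene in RefSeq (GRCh38.p14) are shown for 5 members that the results turn on. For ZNF491 this start lies inside the gene as counted, which begins at chr19:11797667, so its stretch is not before that beginning. The libraries of ZNF283, ZNF560 and ZNF562 did not overlap between hHAR123 and any edited genotype, and ZNF491 and ZNF441 had the largest rises with differentiation in hHAR123. These sequences and the runs in capitals were picked after the values were seen, and stretches that overlap exons of protein-coding genes were left out. In ZNF283 (chr19:43827207-43827320, forward strand) capitals mark CTTCCGG, the reverse complement of CCGGAAG, a core of sites bound by ETS factors. In ZNF560 (chr19:9498617-9498866, reverse strand) and ZNF562 (chr19:9675101-9675350, reverse strand), both in cluster 2, they mark CGGAAGTGACGT, the longest run shared with ZNF121, ZNF266 and ZNF561 of the same cluster. In ZNF491 (chr19:11798273-11798522, forward strand) and ZNF441 (chr19:11766750-11766999, forward strand), neighbours in cluster 3, they mark TCCAATCAGGG, which holds a CCAAT box and is the longest run that both share with ZNF433, the next largest rise in hHAR123.
ZNF283: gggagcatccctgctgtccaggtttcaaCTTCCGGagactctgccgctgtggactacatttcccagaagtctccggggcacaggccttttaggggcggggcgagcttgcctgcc
ZNF560: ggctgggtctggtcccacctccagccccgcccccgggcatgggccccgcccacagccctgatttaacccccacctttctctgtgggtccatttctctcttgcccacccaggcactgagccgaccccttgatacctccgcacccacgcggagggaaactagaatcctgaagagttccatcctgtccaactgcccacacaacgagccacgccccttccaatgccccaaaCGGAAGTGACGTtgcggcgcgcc
ZNF562: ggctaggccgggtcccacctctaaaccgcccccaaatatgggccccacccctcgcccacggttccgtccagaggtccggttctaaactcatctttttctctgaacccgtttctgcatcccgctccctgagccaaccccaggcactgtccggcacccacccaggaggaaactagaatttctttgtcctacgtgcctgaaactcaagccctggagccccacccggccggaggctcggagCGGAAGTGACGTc
ZNF491: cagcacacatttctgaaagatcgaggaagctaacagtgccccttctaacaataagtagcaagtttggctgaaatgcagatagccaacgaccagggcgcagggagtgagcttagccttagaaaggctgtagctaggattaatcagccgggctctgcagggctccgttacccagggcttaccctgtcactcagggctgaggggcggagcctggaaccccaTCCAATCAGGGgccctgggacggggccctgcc
ZNF441: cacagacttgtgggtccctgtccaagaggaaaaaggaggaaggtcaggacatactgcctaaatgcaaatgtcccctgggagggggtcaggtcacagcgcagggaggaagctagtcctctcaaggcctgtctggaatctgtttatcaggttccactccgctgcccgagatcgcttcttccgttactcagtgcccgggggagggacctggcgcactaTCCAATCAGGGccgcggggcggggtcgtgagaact

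RefSeq promoters were matched for 210 of the 240 members, and each was searched on both strands over the 250 bases before the start. CCGGAAG was found in 31.4% of the members' promoters, in 29.9% of those of 194 ZNF genes of other chromosomes and in 12% of those of 15339 protein-coding genes. CCAAT was found in 50.5% of members, 42.8% of ZNF genes of other chromosomes, 37.1% of the other protein-coding genes of chromosome 19 and 34.8% of protein-coding genes. In the same order, TATAAA was found in 1.9%, 4.64%, 7.64% and 9.22%, and GGGCGG in 66.7%, 58.2%, 63.9% and 56.7%. CGGAAGTGACGT, whose first bases overlap CCGGAAG where a C precedes, was present in 5 of the 210 members, the 5 that defined it, and in 0.293% of protein-coding genes. TCCAATCAGGG, which includes CCAAT, was present in 23 members (11%) and in 0.254% of protein-coding genes, and 12 of the 24 matched members of cluster 3 held it. The median number of CG dinucleotides in the window was 16 in members and 17 in protein-coding genes.

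Total counts ranged from 21022748 to 35198684 per library. The 10 pluripotency markers summed to 7558 to 8174 CPM (counts scaled to the total of the library) in ESC libraries and to 1905 to 2525 in ECTO libraries, and the 10 neuroectoderm markers to 485.5 to 604 and to 1624 to 3288, so the stages matched their labels. Of the pluripotency list, only SOX2 had a higher mean in ECTO than in ESC in hHAR123, at 541.8 and 206.2 CPM. HAR123-KO ECTO stood apart within its stage. The neuroectoderm list was at 1624 to 1662 CPM in HAR123-KO against 3270 to 3288 in hHAR123. NES weighed most in this sum, with means of 517.4 and 1284 CPM. Only MAP2 of the list had a higher mean in HAR123-KO, 325.7 against 301.7 CPM. The 8 neural crest markers were at 1861 to 1879 CPM in HAR123-KO against 155 to 159.9 in hHAR123. In cHAR123 ECTO the neural crest list was at 329.4 to 342.2 CPM and in mHAR123 ECTO at 380.3 to 385.9. None of the 8 was at 0, and SOX10, which marks neural crest, had a mean of 327.1 CPM in HAR123-KO ECTO and 11.9 in hHAR123 ECTO. The part of this difference in the members' changes in HAR123-KO ECTO, given below, was not tested. In bulk RNA, fewer cells of a type and less RNA per cell cannot be told apart.

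Most members were expressed at low to moderate levels at both stages. Every member had a count in at least 1 library, and 225 had counts in all 24. The mean level over the 24 libraries, in RPKM (CPM divided by the exon length in kilobases), had a median of 2.945 over the 240 members, with 66 members over 5, 19 over 10 and 19 under 0.1. The highest were ZNF121, a cluster 2 gene whose product has been found bound to MYC, at 30.3 RPKM, and ZNF146 (OZF), a protein made almost wholly of fingers. ZNF146 was at 33.7 ± 0.40 RPKM (SD, n = 3) in hHAR123 ESC and at 23.0 ± 2.01 in hHAR123 ECTO. ZNF460, ZNF358 and ZNF581 followed, with hHAR123 means of 23.6, 20.1 and 21.2 RPKM in ESC and 26.6, 19.4 and 14.6 in ECTO. At the other end, 16 members never passed the filter on low counts, 9 of them in cluster 4 (ZNF208, ZNF257, ZNF492, ZNF676, ZNF723, ZNF728, ZNF729, ZNF98 and ZNF99). Depending on the comparison, 220 to 224 of the 240 members were tested.

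The members took up more of the RNA after differentiation in every genotype. Summed over the 240 genes, hHAR123 ESC libraries lay between 4808 and 5001 CPM (4892 ± 98.8, SD, n = 3) and hHAR123 ECTO libraries between 6424 and 6680 (6525 ± 136). HAR123-KO rose least, from 5228 ± 126 to 5955 ± 59.8 CPM, with its ECTO libraries at 5904 to 6021, all below those of hHAR123. In cHAR123 the sum rose from 4982 ± 117 to 6308 ± 50.6 CPM and in mHAR123 from 5030 ± 115 to 6048 ± 130. The ESC and ECTO libraries did not overlap in any genotype. The 236 ZNF genes of other chromosomes rose as well, from 7969 ± 63.5 to 11346 ± 188 CPM in hHAR123, while the 1233 other protein-coding genes of chromosome 19 fell, from 58760 ± 661 to 50168 ± 1327 CPM.

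Gene by gene, rises were more common than falls. In hHAR123, 138 of the 223 members tested were higher in ECTO and 52 lower at an adjusted p under 0.01 in edgeR's quasi-likelihood test (p-values adjusted over all genes tested by the Benjamini-Hochberg method), or 61.9% and 23.3%. Among all 22280 genes tested, 40.3% were called higher and 39.7% lower. With a log2 fold change over 1 in addition, the thresholds of the study, 51 members were higher and 13 lower. Of the 51, ZNF177, ZNF534 and ZNF540 passed the low-count filter only through their ECTO libraries, so their calls follow from the filter. The share called higher, 22.9%, was near the 24.6% of all genes, and the share called lower, 5.83%, was below the 21.2% of all genes. The median log2 fold change was 0.43 in members and 0.05 in all genes, against 0.19 in ZNF genes of other chromosomes and -0.57 in the other protein-coding genes of chromosome 19. Scaled by total counts instead of TMM, these medians became 0.72 in members and 0.34 in all genes, and calls at any size moved from 72.6% higher to 85.1% higher, 166 against 29.

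Rises also outnumbered falls in the other genotypes, which have libraries of their own. The study's naming matches the column labels in ESC but is their reverse in ECTO. By that naming, the cHAR123 and mHAR123 stage comparisons would each set ECTO libraries of an ortholog against ESC libraries of the other. In HAR123-KO, 122 members were higher and 57 lower at any size (background 39.8% and 39.4%), and 41 and 12 passed the fold threshold (22% and 19.1%). In cHAR123 the counts were 135 and 47 (39.5% and 39.4%), with 59 and 11 past the fold threshold (21.9% and 20.8%). In mHAR123 they were 133 and 48 (39.1% and 39.5%), with 50 and 10 (21.3% and 20.7%). The median log2 fold changes of the members were 0.39, 0.51 and 0.48. Over the 4 genotypes, 33 members were called higher past the fold threshold in all 4, of 64 called so in any, and 9 were called lower in all 4, of 15. The same overlap was not counted over all genes, so these counts are a description of the members only. In each edited genotype 3 or 4 of the higher members, among them ZNF540, passed the filter only through ECTO.

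The size of the rise differed between clusters. In cluster 3, 21 of 25 members rose and 2 fell in hHAR123, with a median log2 fold change of 0.83, and its summed level went from 185.0 ± 5.03 to 363.0 ± 6.36 CPM. Cluster 6 (median 0.82, 20 rose and 2 fell of 24) and cluster 7 (median 0.64, 18 and 2 of 23 tested) were similar, and cluster 9 had a median of 0.36 with 33 rising and 13 falling of 53. Cluster 4 (median 0.03, 11 rose and 10 fell of 28) and cluster 8 (median 0.15, 19 and 15 of 39) were split. The small clusters 1 and 5 also rose in summed level in hHAR123, from 29.0 to 51.6 and from 52.8 to 98.7 CPM. The summed levels of clusters 4 and 8 rose in hHAR123, from 1046.7 to 1361.9 and from 828.1 to 1021.0 CPM. Cluster 2 went from 579.2 ± 16.3 to 564.2 ± 5.6 CPM. This sum includes the fall of ZNF121, the most abundant member, given below, so it does not describe the other members of cluster 2. Clusters 3, 6 and 7 lay above clusters 4 and 8 in all 4 genotypes. Over neighbouring pairs of members, the log2 fold changes had a Pearson correlation of 0.30 in hHAR123 (201 pairs), and 0.32, 0.31 and 0.30 in HAR123-KO, cHAR123 and mHAR123, given as a description, since neighbours share sequence and can share reads.

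**Figure D1:**
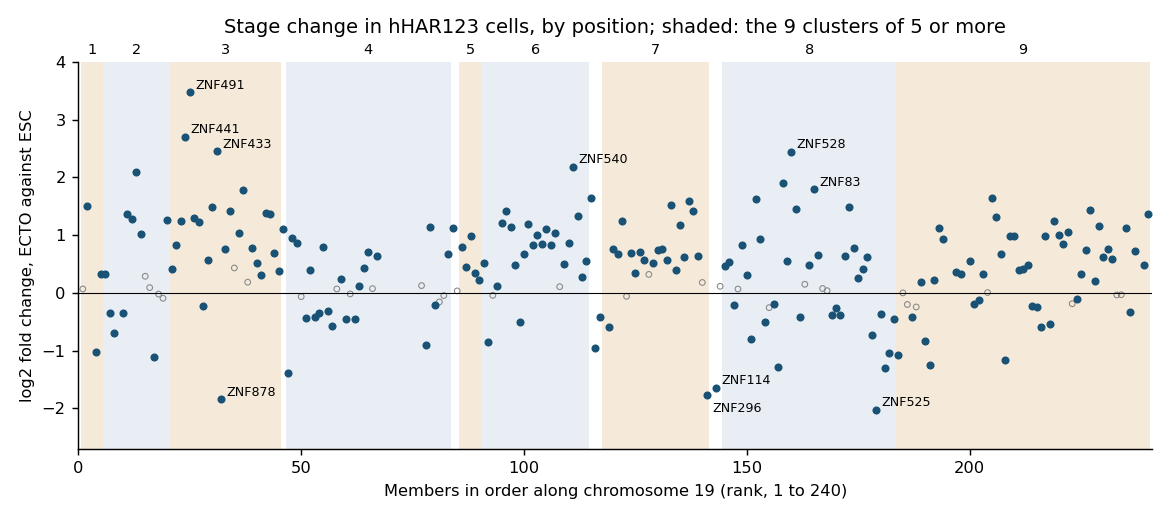
The log2 fold change of each tested member between ECTO and ESC in hHAR123 (y axis) by its order along chromosome 19 (x axis, rank from 1 to 240). Filled points have an adjusted p under 0.01 in edgeR's quasi-likelihood test, open points do not, and shaded bands are clusters 1 to 9. Points of clusters 3, 6 and 7 lie mostly above 0, and those of clusters 4 and 8 lie on both sides.

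**Figure D2:**
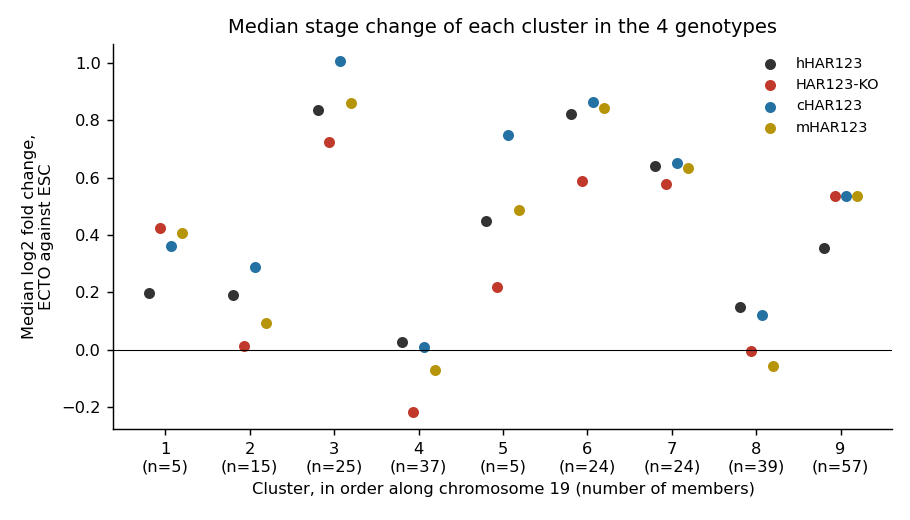
Median log2 fold change between ECTO and ESC (y axis) over the tested members of each cluster (x axis, with the number of members), with 1 point for each genotype. Clusters 3, 6 and 7 lie between 0.58 and 1.01 in all 4 genotypes, and cluster 4 lies between -0.22 and 0.03.

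ZNF491 and ZNF441, neighbours in cluster 3, had the largest rises at the study's thresholds in hHAR123. ZNF491 was at 0.73, 1.05 and 0.88 CPM in the hHAR123 ESC libraries and at 12.7, 12.1 and 11.7 CPM in ECTO, a log2 fold change of 3.47 ± 0.14 (SE, edgeR's quasi-likelihood test, adjusted p = 3.48e-24). ZNF441 was at 1.36, 1.21 and 1.28 CPM and then at 9.80, 10.99 and 9.86, a log2 fold change of 2.71 ± 0.13 (edgeR's quasi-likelihood test, adjusted p = 4.57e-21). The groups did not overlap, and in the 3 edited genotypes ZNF491 rose by 3.28 to 3.69 and ZNF441 by 2.60 to 3.08 on the log2 scale. ZNF433, also in cluster 3, rose by 2.46 in hHAR123, though 15.7% of its exon bases lie opposite exons of ZNF433-AS1. ZNF528 in cluster 8 rose from 9.56, 9.06 and 9.26 CPM to 65.2, 60.7 and 60.4, a log2 fold change of 2.45 ± 0.06. ZNF83 and ZNF610 of the same cluster rose by 1.79 and 1.90. In hHAR123, ZNF540 had 4, 4 and 5 counts in ESC and 14, 18 and 19 in ECTO, and ZNF177 had 3, 8 and 4 and then 13, 22 and 20. Both passed the filter only through ECTO, so these values are a description, and 92.5% of the exon bases of ZNF177 are shared with the readthrough gene ZNF559-ZNF177.

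Fewer members fell. Some of them, such as ZNF878 beside ZNF433, stood next to members that rose. In cluster 8, ZNF845, ZNF525, ZNF765, ZNF761, ZNF813 and ZNF331 follow one another, and all were lower at any size in all 4 genotypes. This stretch was picked after the values were seen. ZNF525 in cluster 8 was at 52.1, 56.7 and 56.5 CPM in hHAR123 ESC and at 17.6, 15.8 and 16.5 in ECTO, a log2 fold change of -2.02 ± 0.06 (edgeR's quasi-likelihood test, adjusted p = 1.47e-29), and it fell by 2.28 to 2.47 in the edited genotypes. ZNF878, within cluster 3, fell from 4.23, 3.52 and 4.66 CPM to 1.05, 1.57 and 1.58, a log2 fold change of -1.84 ± 0.17. ZNF296, which encodes a partner of KLF4 known from reprogramming to pluripotency, fell from 9.66, 9.03 and 8.84 CPM to 2.997, 3.60 and 3.20, a log2 fold change of -1.77 ± 0.11. In each of these the ESC and ECTO libraries did not overlap. ZNF114 fell by 1.65, ZNF101 by 1.39 and ZNF121, the most abundant member, by 1.10, from a mean of 279.1 to 159.1 CPM. ZNF101, ZNF114, ZNF121, ZNF296, ZNF480, ZNF525, ZNF761, ZNF813 and ZNF878 were called lower in all 4 genotypes, and 5 of these 9 are not in cluster 8.

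The members of cluster 3 with TCCAATCAGGG before their start did not all move alike. The 12 of them ranged from -1.84 (ZNF878) to 3.47 (ZNF491) in hHAR123, with a median log2 fold change of 1.04, and the 12 without it from -0.23 to 1.79, with a median of 0.78. The 9 tested members of other clusters that hold the run had a median of -0.41. These are descriptions, since the run was found in members already known to rise.

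A list of 29 partners of KRAB zinc finger proteins and related regulators, which itself holds the zinc finger genes ZFP57, ZNF445 and ZKSCAN3, was followed beside the members. Of these, 28 were tested in hHAR123. In ECTO, 15 were lower and 9 higher at any size, against 39.7% and 40.3% of all genes. Past the fold threshold, 6 were lower and 1 higher, against 21.2% and 24.6% of all genes. TRIM28, the corepressor that the KRAB domain binds, fell from 1196 ± 15.3 to 431.0 ± 22.5 CPM, a log2 fold change of -1.76 ± 0.03. DNMT3B, a de novo DNA methyltransferase abundant in pluripotent cells, fell by 3.87, DAXX, a chaperone of histone H3.3, by 1.46, UHRF1 by 1.22 and DNMT1, the maintenance methyltransferase that UHRF1 guides, by 1.07. ZFP57 fell by 3.40 from under 1 CPM. ZNF445, which keeps imprints together with ZFP57 and is not on chromosome 19, rose from 87.5 ± 4.13 to 235.3 ± 3.01 CPM, and SETDB1, the methyltransferase that TRIM28 recruits, rose by 0.36. In the HAR123-KO against hHAR123 comparison in ECTO, 9 of 27 were higher and 8 lower, against 24.2% and 19.9% of all genes, with none past the fold threshold, against 4.92% and 4.52%.

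In ESC, few members differed between an edited genotype and hHAR123, and 1 stood lower in all 3. At the thresholds of the study, HAR123-KO had 3 members higher (ZNF562, ZNF649 and ZNF880) and 1 lower (ZNF283) of 220 tested, against a background of 0.96% and 0.221% of all genes. cHAR123 had none higher and 2 lower, ZNF283 and ZNF829, of 221 (0.626% and 0.225%), with 12 members higher and 9 lower at any size (7.72% and 8.6%). mHAR123 had none higher and ZNF283 lower (1.03% and 0.199%), with 10 higher and 8 lower at any size (9.02% and 10.2%). In HAR123-KO, 26 were higher and 7 lower at any size, or 11.8% and 3.18% of the members against 7.06% and 5.29% of all genes. In the higher direction, cHAR123 and mHAR123 had 0 members over 1 on the log2 scale at an unadjusted p under 0.05 in edgeR's test, and DESeq2 called 0 higher. DESeq2 also called ZNF283 lower in both and ZNF829 lower in cHAR123. Scaled by total counts, calls at any size became 15 higher and 4 lower in cHAR123 and 14 and 3 in mHAR123. The medians of all genes moved from 0.008 to 0.038 and from 0.007 to 0.048, and shares of all genes were not counted. All 3 comparisons use the same hHAR123 libraries, so a member called in each is not 3 independent results.

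ZNF283, a KRAB gene of cluster 7 at chr19:43827321-43852017, was lower in every edited genotype at both stages. In ESC it was at 5.30, 5.78 and 5.48 CPM in hHAR123, at 1.59, 1.80 and 1.70 in HAR123-KO, at 1.20, 1.25 and 1.60 in cHAR123 and at 0.81, 1.09 and 0.92 in mHAR123. The edited libraries did not overlap with hHAR123, and the log2 fold changes were -1.72 ± 0.13, -2.05 ± 0.14 and -2.60 ± 0.15 (edgeR's quasi-likelihood test, adjusted p = 1.25e-13, 2.6e-14 and 1.28e-18). In ECTO it was at 11.4, 10.5 and 10.6 CPM in hHAR123, at 2.76, 1.96 and 2.25 in HAR123-KO, at 2.24, 1.69 and 2.11 in cHAR123 and at 1.12, 1.08 and 0.69 in mHAR123. These are log2 fold changes of -2.17 ± 0.13, -2.41 ± 0.13 and -3.43 ± 0.15 (edgeR's quasi-likelihood test, adjusted p = 8.93e-21, 5.13e-19 and 1.3e-20). The columns labelled mHAR123 were lowest at both stages, and in ECTO mHAR123 differed from HAR123-KO itself by -1.24 ± 0.23 (edgeR's quasi-likelihood test, adjusted p = 1.01e-05). From ESC to ECTO its HAR123-KO fold change moved by -0.46 ± 0.20, which did not pass (edgeR's quasi-likelihood test, adjusted p = 0.0558).

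ZNF560, in cluster 2 at chr19:9466355-9498616, had the same pattern at very low counts. It had 9, 17 and 14 counts in the hHAR123 ESC libraries and 16, 11 and 14 in ECTO. In HAR123-KO it had no count in any ESC library and 0, 3 and 0 in ECTO, in cHAR123 0, 2 and 0 and then 3, 1 and 2, and in mHAR123 0, 1 and 0 and then 2, 1 and 1. No edited library reached the lowest hHAR123 library. Over the summed counts, HAR123-KO ESC was at least 11.4-fold lower than hHAR123, taking 3 counts over the group as the floor, and the exact 95% interval of the ratio, which also covers counting error in hHAR123, starts at 8.87. The other ratios of hHAR123 to the edited genotype were 16.9 (95% exact interval 4.37 to 144) in cHAR123 ESC, 14.3 (4.56 to 72.1) in HAR123-KO ECTO, 7.06 (2.98 to 20.4) in cHAR123 ECTO and 10.9 (3.96 to 42.0) in mHAR123 ECTO, intervals that cover counting error only. With 1 count in mHAR123 ESC the ratio was 36.9 (6.25 to 1490). It was not tested in the ESC comparisons. In ECTO it passed the filter only through the hHAR123 libraries, so its calls as lower in all 3 comparisons follow from the filter, and the counts and ratios are a description. The fitted log2 fold change of HAR123-KO ECTO was -3.63, and -6.79 without HAR123-KO replicate 2, the only library of its group with counts. Over the 24 libraries, the members most like it in log2 CPM were ZNF283 (Pearson r = 0.85), ZNF558 (0.77, which never passed the filter and had no count in HAR123-KO or cHAR123) and ZNF544 (0.62). The 24 libraries share stages and genotypes, and these values are a description.

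ZNF562, also in cluster 2 at chr19:9641807-9675100, went the other way. It was at 31.8, 34.7 and 33.5 CPM in hHAR123 ESC, and the 9 edited ESC libraries lay between 60.5 and 71.7. In ECTO it was at 39.1, 36.9 and 38.9 CPM in hHAR123, and the 9 edited libraries lay between 74.0 and 84.6. The log2 fold changes were 1.04 ± 0.04, 0.98 ± 0.04 and 0.94 ± 0.05 in ESC and 1.13 ± 0.05, 1.07 ± 0.05 and 1.01 ± 0.05 in ECTO, for HAR123-KO, cHAR123 and mHAR123. All 6 passed the adjusted p (edgeR's quasi-likelihood test, largest adjusted p = 8.1e-20), and the 2 under 1 missed the fold threshold. Of its exon bases, 50.7% lie opposite exons of ZNF561-AS1, and since the sources used here do not say whether strand was used in counting, reads of the pair cannot be told apart. The value in mHAR123 ECTO was 0.99 without hHAR123 replicate 2 and 0.995 without mHAR123 replicate 3. ZNF121, ZNF266 and ZNF561, which share CGGAAGTGACGT with ZNF560 and ZNF562, had log2 fold changes between -0.15 and 0.09 in all 6 comparisons.

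ZNF829, a member of cluster 6, was lowest in the columns labelled cHAR123 at both stages. In ESC it was at 3.15, 3.50 and 2.74 CPM in cHAR123 and between 5.37 and 7.71 in the other 9 libraries. In ECTO it was at 8.33, 7.86 and 6.59 in cHAR123 and between 9.32 and 16.1 in the others. Against hHAR123 the log2 fold changes of cHAR123 were -1.25 ± 0.11 in ESC and -1.03 ± 0.09 in ECTO (edgeR's quasi-likelihood test, adjusted p = 3.81e-11 and 2.62e-12), and the second was -0.95 without cHAR123 replicate 3. cHAR123 was also lower than HAR123-KO in ECTO, by -0.45 ± 0.10 (edgeR's quasi-likelihood test, adjusted p = 8.04e-05), and mHAR123 was higher than HAR123-KO by 0.31 ± 0.09 (adjusted p = 0.00304).

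**Figure D3:**
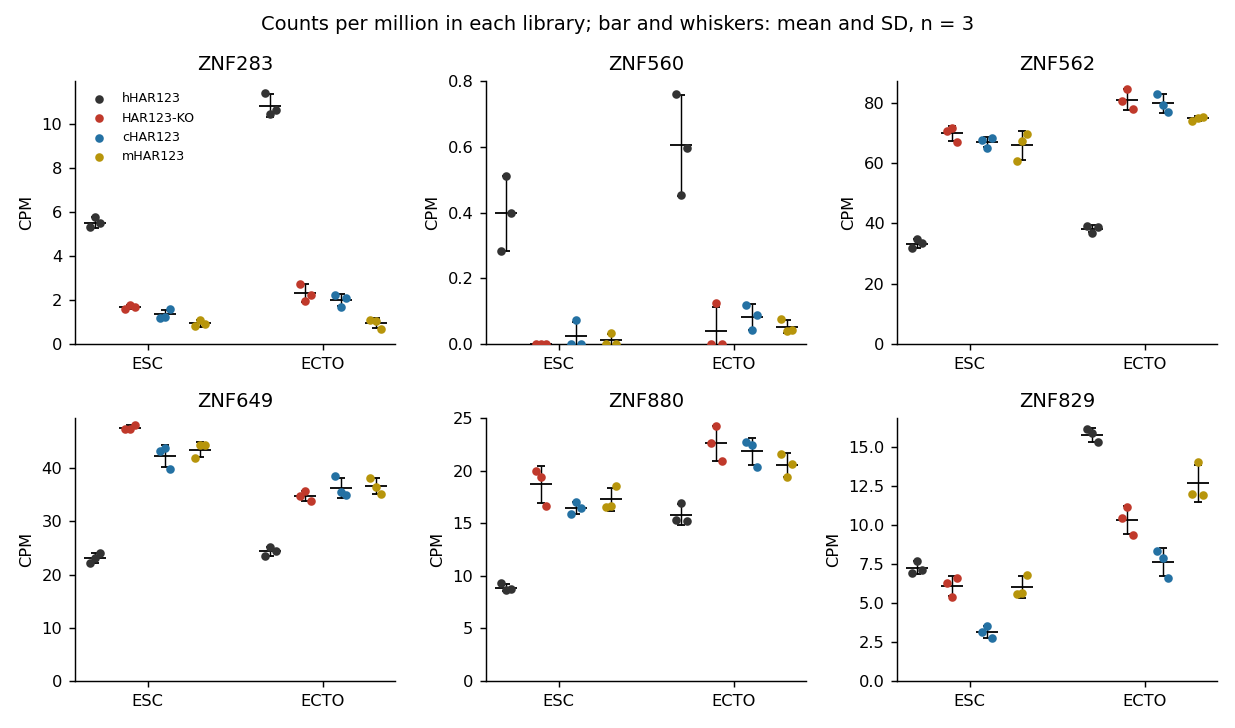
CPM (y axis, linear from 0) of 6 members in each of the 24 libraries, by stage (x axis) and genotype (colour), with the mean and SD of 3 libraries as bar and whiskers. In ZNF283 and ZNF560 the hHAR123 libraries lie above all edited libraries, in ZNF562, ZNF649 and ZNF880 below them, and in ZNF829 the cHAR123 libraries are lowest.

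In ESC, members that were higher in HAR123-KO were neighbours in cluster 8 and cluster 4. Of the 39 members of cluster 8, 15 were higher and none lower at any size (median log2 fold change 0.20), and of the 28 tested in cluster 4, 8 were higher and none lower (median 0.11). Of all genes, 7.06% were higher and 5.29% lower. The other 7 clusters together held the remaining 3 higher members in clusters 2, 3 and 7. The summed level of cluster 8 was 828.1 ± 21.3 CPM in hHAR123 ESC and 984.9 ± 23.6 in HAR123-KO ESC, with 913.7 ± 28.3 in cHAR123 and 923.0 ± 26.5 in mHAR123. The libraries of HAR123-KO, at 960.6 to 1008 CPM, lay above all others of the stage. ZNF649, a KRAB repressor at chr19:51889235-51905040, was at 22.2, 23.1 and 23.9 CPM in hHAR123, 47.4, 47.3 and 48.2 in HAR123-KO, 43.2, 43.7 and 39.9 in cHAR123 and 41.9, 44.2 and 44.3 in mHAR123. It rose by 1.02 ± 0.05, 0.84 ± 0.05 and 0.87 ± 0.05 (edgeR's quasi-likelihood test, adjusted p = 6.84e-21, 1.81e-16 and 1.12e-19), and no edited library overlapped with hHAR123. ZNF880, at chr19:52369917-52385795, was at 9.28, 8.61 and 8.72 CPM in hHAR123 and between 15.9 and 20.0 in the 9 edited libraries, with log2 fold changes of 1.05, 0.86 and 0.92. Beside these, the summed neuroectoderm list was at 485.5 to 516.8 CPM in hHAR123 ESC and 580.8 to 604 in HAR123-KO ESC. NES accounts for the higher sum, with means of 442.8 and 545.2 CPM, while OTX2 (34.9 and 28.6), ZNF521 (16.9 and 12.7) and MAP2 (7.39 and 4.78) had lower means in HAR123-KO. The 5 fibroblast-like markers summed to 553.8 to 577 and 632.7 to 647.2 CPM, mostly through COL1A1 (88.2 and 139.8), and DCN was at 0. Their part in the result was not tested.

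Other members beside ZNF649 were chosen after their values were seen. ZNF577, 3.89% of whose exon bases are shared with ZNF649 and other genes, was at a mean of 27.6 CPM in hHAR123 ESC and 41.6, 39.1 and 39.1 in HAR123-KO, cHAR123 and mHAR123, log2 fold changes of 0.57, 0.47 and 0.46. ZNF350 (ZBRK1), a repressor that works with BRCA1, had log2 fold changes of 0.80, 0.75 and 0.90. ZNF615 and ZNF614, which lie between ZNF350 and ZNF432, did not pass in any of the 3 genotypes and had log2 fold changes of 0.27 and 0.13 in HAR123-KO. In cluster 8, 7 members were higher in cHAR123 ESC and 6 in mHAR123 ESC, with none lower. Of all genes, 7.72% and 9.02% were higher and 8.6% and 10.2% lower. ZNF577, ZNF649, ZNF350, ZNF880, ZNF578 and ZNF525 were on all 3 lists, which share the hHAR123 libraries. The same overlap was not counted over all genes, so it is a description of the members only. ZNF439 of cluster 3 was also higher in each, by 0.67, 0.64 and 0.63.

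In ECTO, the larger changes in HAR123-KO were few, and at any size a smaller share of members than of all genes was higher. ZNF562 and ZNF575 were higher and ZNF283 and ZNF560 lower at the thresholds of the study, 2 and 2 of 223 tested, or 0.897% in each direction, against 4.92% and 4.52% of all genes. ZNF560 passed the filter only through hHAR123 and ZNF575 only through HAR123-KO, so these calls follow from the filter. At any size, 24 members were higher and 56 lower, or 10.8% and 25.1%, against 24.2% and 19.9% of all genes. Among ZNF genes of other chromosomes, 24.3% were higher and 27.5% lower, so the share of members lower was not particular to them. Scaled by total counts, 19 were higher and 79 lower, and the median log2 fold change of all genes was -0.051. Shares of all genes were not counted at that scaling. With TMM scaling, the median log2 fold change was -0.08 in members and 0.00 in all genes. It was -0.01 in ZNF genes of other chromosomes and 0.12 in the other genes of chromosome 19. Cluster 4 had 14 lower and none higher (median -0.18), and its summed level was 1139 ± 32.3 CPM in HAR123-KO ECTO and 1362 ± 71.4 in hHAR123 ECTO, without overlap between the libraries. ZNF91, which silences SVA retrotransposons, was at 211.4, 192.0 and 197.7 CPM in hHAR123 ECTO and at 152.3, 165.7 and 161.8 in HAR123-KO, with a log2 fold change of -0.27 ± 0.04. ZNF93, which silences L1 elements, was at 53.2, 47.0 and 56.5 CPM and at 38.2, 36.5 and 37.4, a log2 fold change of -0.43 ± 0.05. ZNF443 of cluster 3 was at 16.9, 14.5 and 15.2 CPM and at 7.41, 7.28 and 8.79, a log2 fold change of -0.94 ± 0.09. For each of the 3 the groups did not overlap (edgeR's quasi-likelihood test, largest adjusted p = 4.13e-09), and they were chosen after their values were seen. The lower neuroectoderm and higher neural crest lists of HAR123-KO ECTO given above moved with these members.

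The replacement genotypes were also compared with hHAR123 in ECTO, where ZNF560 again passed the filter only through hHAR123. cHAR123 had ZNF562 higher and ZNF283, ZNF560 and ZNF829 lower at the thresholds of the study (background 0.522% and 0.456%), with 8 higher and 13 lower at any size (5.9% and 3.99%). mHAR123 had ZNF562 higher and ZNF283 and ZNF560 lower (0.603% and 0.429%), with 11 higher and 25 lower at any size (8.8% and 5.21%). Scaled by total counts, mHAR123 had 9 higher and 43 lower, and the median of all genes moved from -0.008 to -0.05. Shares of all genes were not counted at that scaling. Cluster 4 had 7 lower in cHAR123 and 8 in mHAR123, and none higher. Set directly against HAR123-KO in ECTO, cHAR123 had 51 members higher and 14 lower at any size of 222, or 23% and 6.31%, against 18.8% and 20.3% of all genes. It had 0 past the fold threshold in either direction in edgeR's quasi-likelihood test (3.7% and 3.91% of all genes), 0 at an unadjusted p under 0.05 and 0 in DESeq2. mHAR123 had 36 higher and 19 lower (17.8% and 18.7%), and past the fold threshold ZNF283 and ZNF575 lower and none higher (3.55% and 3.78%). ZNF575 had 30, 20 and 32 counts in HAR123-KO ECTO, 11, 11 and 19 in mHAR123, 30, 20 and 15 in cHAR123 and 15, 8 and 8 in hHAR123, and the log2 difference of -1.01 ± 0.31 between mHAR123 and HAR123-KO fell short of 1 without HAR123-KO replicate 1 (-0.91) or 3 (-0.90), or mHAR123 replicate 1 (-0.82) or 2 (-0.88). In DESeq2 it did not pass the adjusted p there (0.0880) or in HAR123-KO against hHAR123 (0.0184).

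The HAR123-KO effect itself differed between the stages for many members, mostly toward lower values in ECTO. In the interaction of genotype and stage over 12 libraries, 51 of 224 members were lower and 17 higher in ECTO than in ESC, or 22.8% and 7.59%, against 13.9% and 18.6% of all genes. Among ZNF genes of other chromosomes, 20.9% were lower and 20% higher. Scaled by total counts, 64 were lower and 9 higher, and the median of all genes moved from -0.005 to -0.072. Shares of all genes were not counted at that scaling. Cluster 8 had 18 lower and none higher (median difference of log2 fold changes -0.27), cluster 4 had 15 lower and none higher (median -0.25), and cluster 9 had 10 higher and 6 lower. In cluster 8 the summed level of HAR123-KO was above that of hHAR123 in ESC, and in ECTO it was below it, at 927.0 ± 8.24 against 1021 ± 21.4 CPM, without overlap at either stage. ZNF577 had a log2 fold change of 0.57 in ESC and 0.00 in ECTO, a difference of -0.58 ± 0.07 (edgeR's quasi-likelihood test, adjusted p = 2.33e-10). ZNF443 had the lowest difference, -0.99 ± 0.12 (edgeR's quasi-likelihood test, adjusted p = 1.50e-09).

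ZNF536, a zinc finger gene known to restrain neuronal differentiation and outside the 9 clusters, was the only member past the fold threshold in the interaction, against 3.84% of all genes higher and 4.03% lower. It had 15, 13 and 13 counts in hHAR123 ESC and 3, 4 and 7 in HAR123-KO ESC, and 16, 36 and 24 and 31, 47 and 62 counts in ECTO. Between the stages of HAR123-KO it passed the filter only through ECTO, and its interaction rests on these low counts. HAR123-KO was lower without overlap in ESC, and in ECTO the lowest HAR123-KO library lay within the range of hHAR123. The log2 fold changes were -1.33 ± 0.45 in ESC (edgeR's quasi-likelihood test, adjusted p = 0.0290, which did not pass) and 0.87 ± 0.25 in ECTO (adjusted p = 0.00260), a difference of 2.19 ± 0.53 (adjusted p = 6.59e-04).

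**Figure D4:**
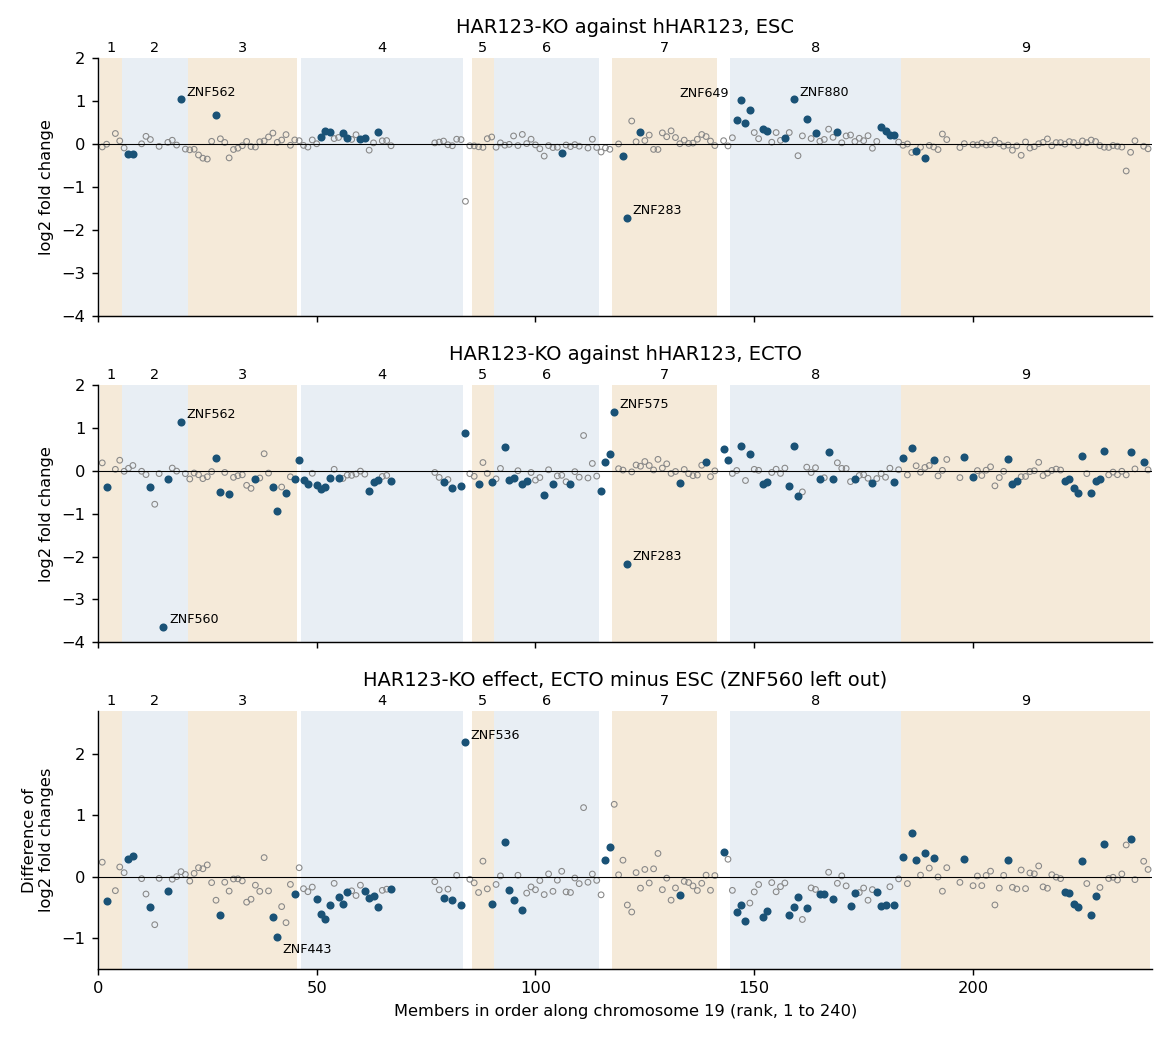
Log2 fold change of HAR123-KO against hHAR123 in ESC (top) and ECTO (middle), and their difference (bottom), for each tested member (y axis) by its order along chromosome 19 (x axis, rank from 1 to 240). Filled points have an adjusted p under 0.01, bands are clusters 1 to 9, and ZNF560 is left out of the bottom panel. Filled points of cluster 8 lie above 0 in ESC and below 0 in the bottom panel.

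**Figure D5:**
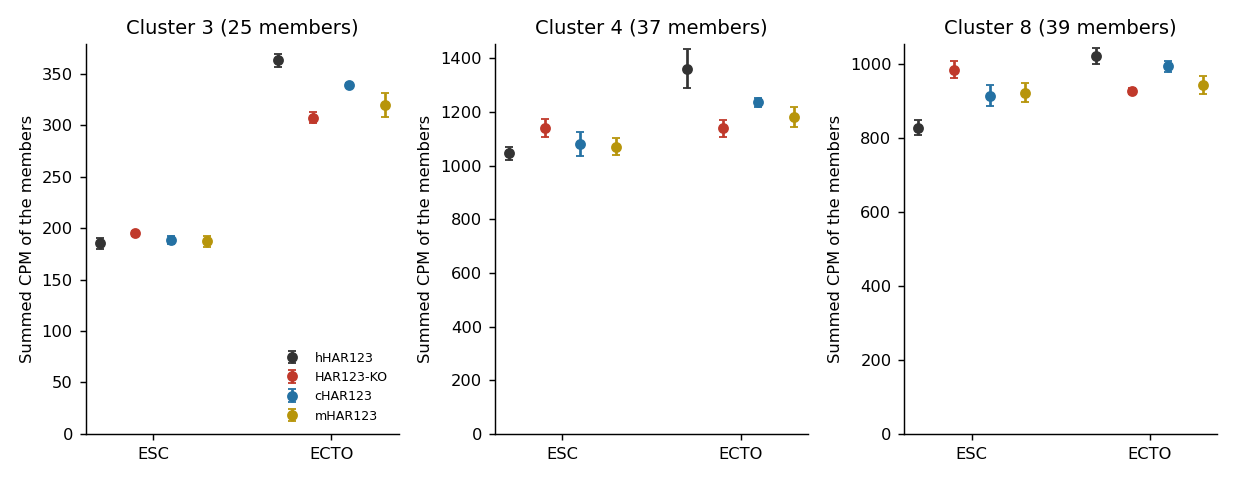
Summed CPM of the members of clusters 3, 4 and 8 (y axis, linear from 0) by stage (x axis) and genotype (colour), as mean and SD of 3 libraries. Cluster 3 is higher in ECTO in all genotypes, and in cluster 8 HAR123-KO is the highest genotype in ESC and the lowest in ECTO.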

How the data were processed

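RNA of H9 cells was rRNA-depleted and sequenced as directional paired-end libraries. Per the submitters' processing notes and the study's methods, the authors aligned reads to GRCh38 with STAR 2.5.2b and counted them per gene with featureCounts (Subread), and the deposited values are raw read counts per gene, with no normalization. Whether strand was used in counting is not given in the sources used here.

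Each comparison was fitted on its own libraries with edgeR 4.0.16 in R 4.3.3 (filterByExpr, TMM scaling, quasi-likelihood F test), and p-values were adjusted over all genes tested by Benjamini-Hochberg. A DEG had an adjusted p under 0.01 and a log2 fold change over 1 in size. SE was the log2 fold change divided by the root of F. The fits were tested on simulated data. CPM are counts scaled to the total of each library, and RPKM divide CPM by exon length in kilobases. Genes named are all DEGs of a direction, or the 8 largest if more, those shared by the 3 edited genotypes, the 5 highest by RPKM and the 3 most like the leading member, and any others are said to be chosen after their values were seen. Alternatives were DESeq2 1.42.0, its size factors, total counts, no filter, 1 fit over all libraries, a replicate block, an adjusted p of 0.05, other cluster gaps and leaving out each library. Members, lists and tests were chosen with earlier results of these data known.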

Additional observations from a re-analysis of the deposited data

Results flagged for a closer look

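Groups of 3 libraries are too small for a test of outlying libraries, and the results here are those in which an effect itself differed between groups. The HAR123-KO effect differed between the stages for 51 members that were lower and 17 that were higher in ECTO relative to ESC, by the interaction term of edgeR's quasi-likelihood test. ZNF536 had the only difference past the fold threshold, 2.19 on the log2 scale, from 3 to 62 counts per library. Between the stages of HAR123-KO it passed the filter only through ECTO. Between mHAR123 and HAR123-KO in ECTO, ZNF283 differed by -1.24 and ZNF575 by -1.01 on the log2 scale. The neural crest and neuroectoderm markers of HAR123-KO ECTO moved with these results, and their part was not tested.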

How the results depend on the processing

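Of 1109 values of named genes under other settings, 1093 kept their call, 16 lost it and 0 reversed. These genes were named for their calls in the same data, and some calls follow from the filter, so the tally is a description. Values for which a setting gave no adjusted p were left out of it. Lost calls were ZNF562 in mHAR123 ECTO (0.97 with total counts), ZNF829 in cHAR123 ECTO, ZNF575 in mHAR123 against HAR123-KO and, with DESeq2, in HAR123-KO against hHAR123 ECTO, the rise of ZNF540 between the stages in mHAR123 with DESeq2 (log2 fold change 1.61, adjusted p = 0.0183), and, with total counts, falls between the stages of ZNF480, ZNF787, ZNF813 and ZNF121. Among 364 counts under settings other than leaving out a library, 39 moved over 1.5 times, and the cause was not tested. Low counts limit ZNF560, ZNF575 and ZNF536, and DESeq2 gave no adjusted p for ZNF560 in cHAR123 and mHAR123 ECTO.

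With an adjusted p of 0.05, HAR123-KO ESC had 2 members lower past the fold threshold and 11 lower at any size, cHAR123 ESC had 23 lower, mHAR123 ESC had 16 higher and 22 lower, cHAR123 ECTO had 2 higher past the threshold, 15 higher and 20 lower at any size, and mHAR123 ECTO had 46 lower. With DESeq2, HAR123-KO ESC had 15 higher and 4 lower at any size, mHAR123 ESC 6 and 5, and HAR123-KO ECTO 10 and 36, with 1 higher past the threshold. DESeq2 also gave 5 lower in cHAR123 ECTO, 13 lower and 1 past the threshold in mHAR123 ECTO, 17 higher, 6 lower and 1 lower past the threshold for mHAR123 against HAR123-KO, and 11 higher in the interaction. With total counts, HAR123-KO ESC had 4 lower, cHAR123 ESC 4 lower and 1 higher past the threshold, mHAR123 ESC 3 lower, mHAR123 ECTO 43 lower and 0 higher past the threshold, and the interaction 9 higher and 1 lower past the threshold. Between the stages, total counts gave 80 higher and 6 lower past the threshold and 29 lower at any size in hHAR123, and 6 lower past the threshold in cHAR123. Without the filter, HAR123-KO ESC and mHAR123 ESC each had 2 lower past the threshold, and cHAR123 ESC had 14 lower at any size. With gaps over 2 Mb, the cluster that holds ZNF649 had a median stage change of 0.32. Shares of all genes were not counted under these settings or with a library left out, so the counts describe the members only.

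With the replicate number as a block, mHAR123 ESC had 14 members lower at any size in place of 8, and no other count moved over 1.5 times. Same-numbered libraries did not deviate together (correlations of -0.03 to 0.03), so the replicate block pairs numbers only.

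Leaving out each library in turn gave these ranges of members higher and lower at any size, with those past the fold threshold in parentheses. The ranges were for HAR123-KO ESC 18 to 27 and 4 to 7 (3 to 4 and 1 to 2), cHAR123 ESC 9 to 13 and 5 to 11 (0 to 1 and 2 to 3) and for mHAR123 ESC 6 to 11 and 5 to 10 (0 to 1 and 1 to 2). The ranges were for HAR123-KO ECTO 17 to 21 and 45 to 57 (2 to 3 and 2 to 3), cHAR123 ECTO 7 to 9 and 5 to 15 (1 to 1 and 2 to 3) and for mHAR123 ECTO 9 to 12 and 11 to 24 (0 to 1 and 2 to 2). The ranges were for cHAR123 against HAR123-KO, ECTO 37 to 45 and 12 to 15 (0 to 0 and 0 to 2) and for mHAR123 against HAR123-KO, ECTO 23 to 33 and 11 to 15 (0 to 0 and 1 to 2). The ranges were for the stages of hHAR123 127 to 133 and 47 to 53 (51 to 53 and 12 to 14), the stages of HAR123-KO 118 to 120 and 56 to 58 (37 to 41 and 11 to 13), the stages of cHAR123 128 to 134 and 46 to 47 (51 to 61 and 11 to 13) and for the stages of mHAR123 129 to 134 and 47 to 49 (45 to 56 and 10 to 12). The ranges were for the interaction 12 to 17 and 41 to 51 (1 to 1 and 0 to 1). Counts of 5 or more moved over 1.5 times without hHAR123 ESC replicate 2 (HAR123-KO 4 lower, mHAR123 6 higher and 5 lower), hHAR123 ESC replicate 3 (cHAR123 and mHAR123 5 lower), hHAR123 ECTO replicate 3 (cHAR123 7 lower), cHAR123 ECTO replicate 3 (5 lower), mHAR123 ECTO replicate 2 (11 lower, and 23 higher against HAR123-KO) or 3 (16 lower, and 12 lower against HAR123-KO) and HAR123-KO ECTO replicate 3 (mHAR123 against it, 23 higher and 11 lower).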
